A study of Mus musculus with 4 samples.

Results

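The genes described here are the Wnt ligands, their frizzled and Lgr receptors, the R-spondins that amplify the signal, and the secreted antagonists of the Sfrp and Dkk families. They were taken by symbol, as every gene whose name begins with Wnt, Fzd, Rspo, Sfrp or Dkk and a digit, together with Lgr4, Lgr5 and Lgr6. This gave 46 of the 32285 genes counted: 19 Wnt ligands, 10 frizzled receptors, 4 R-spondins, 3 Lgr receptors, 4 Sfrp and 4 Dkk antagonists, and 2 RNAs (Rspo4os and Fzd10os) annotated on the opposite strand of a member. Lung nuclei were sequenced from 2 WT mice (C57/BL6J) and 2 VEcad-TRF2DN-Tg mice, which have the same background per the study. All were aged 8 to 9 weeks per the labels, and male and kept at 10% oxygen for 3 weeks per the methods of the study. Those methods do not say whether this age is before or after the hypoxia. In Tg mice the VE-cadherin promoter drives TRF2DN, a dominant-negative version of TRF2, which caps telomeres, and so targets it to endothelial cells (ECs), and both genotypes were hypoxic. No normoxic lung was analysed here, and each genotype rests on 2 mice.

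Wnt proteins are secreted, lipid-modified ligands that bind frizzled receptors, and with the co-receptors Lrp5 or Lrp6 they stabilise beta-catenin, while other Wnt proteins act through Ror or Ryk receptors without it. R-spondins bind Lgr4, Lgr5 or Lgr6 and keep frizzled receptors on the membrane by clearing the ubiquitin ligases Rnf43 and Znrf3, whereas Sfrp proteins bind Wnt ligands and Dkk proteins act on Lrp5 and Lrp6. In the lung, Wnt signals are known for shaping the alveolar epithelium and for guiding the growth of vessels.

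The deposited matrices hold every barcode, with 125261739 to 182014706 unique molecular identifiers (UMIs, each standing for 1 captured transcript) per mouse. Barcodes with at least 1500 UMIs numbered 26933, 38543, 25269 and 44000 in WT1, WT2, Tg1 and Tg2, and 0.697% to 1.30% of the barcodes of the smaller library of each pair also occurred in the other. A barcode was given a class when it carried more UMIs of that class's markers than free RNA would give, which named 5338, 6971, 12997 and 16148 nuclei in the same order. Each class stands for nuclei like the cell type it is named after (AT1-like, for example), and no member of the gene list is a marker. All 8 mesothelial markers were detected in the mesothelial class, although none was among its 10 leading genes by fold. Another 11419 to 31214 barcodes per mouse carried too few markers and stayed unnamed, and 146 to 1242 carried markers of several classes and were left out. The 18 classes with at least 10 nuclei in every mouse were compared, beside barcodes with 300 to 800 UMIs. These were taken as droplets without a nucleus, which show the RNA that floats free in the suspension. They numbered 7688, 10371, 18387 and 2732 in WT1, WT2, Tg1 and Tg2. How many of the unnamed barcodes also lack a nucleus was not tested. The share of free RNA in the class sums was estimated at 31.3% to 68.3%. Terf2, the gene of TRF2, was at 53.4 and 52.2 UMIs per 1000000 (CPM) in ECs of WT1 and WT2 and at 47.8 and 50.8 in ECs of Tg1 and Tg2. Whether transcripts of the transgene are counted under that symbol is not given in the sources used here.

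Of the 46 genes, 31 passed the filter on low counts in at least 1 class and 30 were called higher in at least 1 class than in all other named nuclei of the same mice (edgeR's quasi-likelihood test with a term for the mouse, adjusted p under 0.05). Over all pairs of a gene and a class, 64 of 510 were higher in the class, 12.5%, beside 13.2% of the pairs of all genes. Another 137, or 26.9%, were lower, beside 17.8% of the pairs of all genes. The genes were thus raised in a class about as often as other genes and lowered more often, and no test of that difference was made. Of the 15 genes not tested, Wnt1, Wnt6, Wnt8a, Wnt8b, Wnt10a, Wnt16, Wnt3, Fzd9, Fzd10, Rspo4, Rspo4os, Sfrp5, Dkk1 and Dkk4 had 1 to 33 UMIs over all named nuclei, and Sfrp4 had 85. Levels are given as CPM, UMIs per 1000000 UMIs of the class, and levels of different genes are not compared, since 3' counting of pre-mRNA depends on each gene's length and priming.

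**Figure D1:**
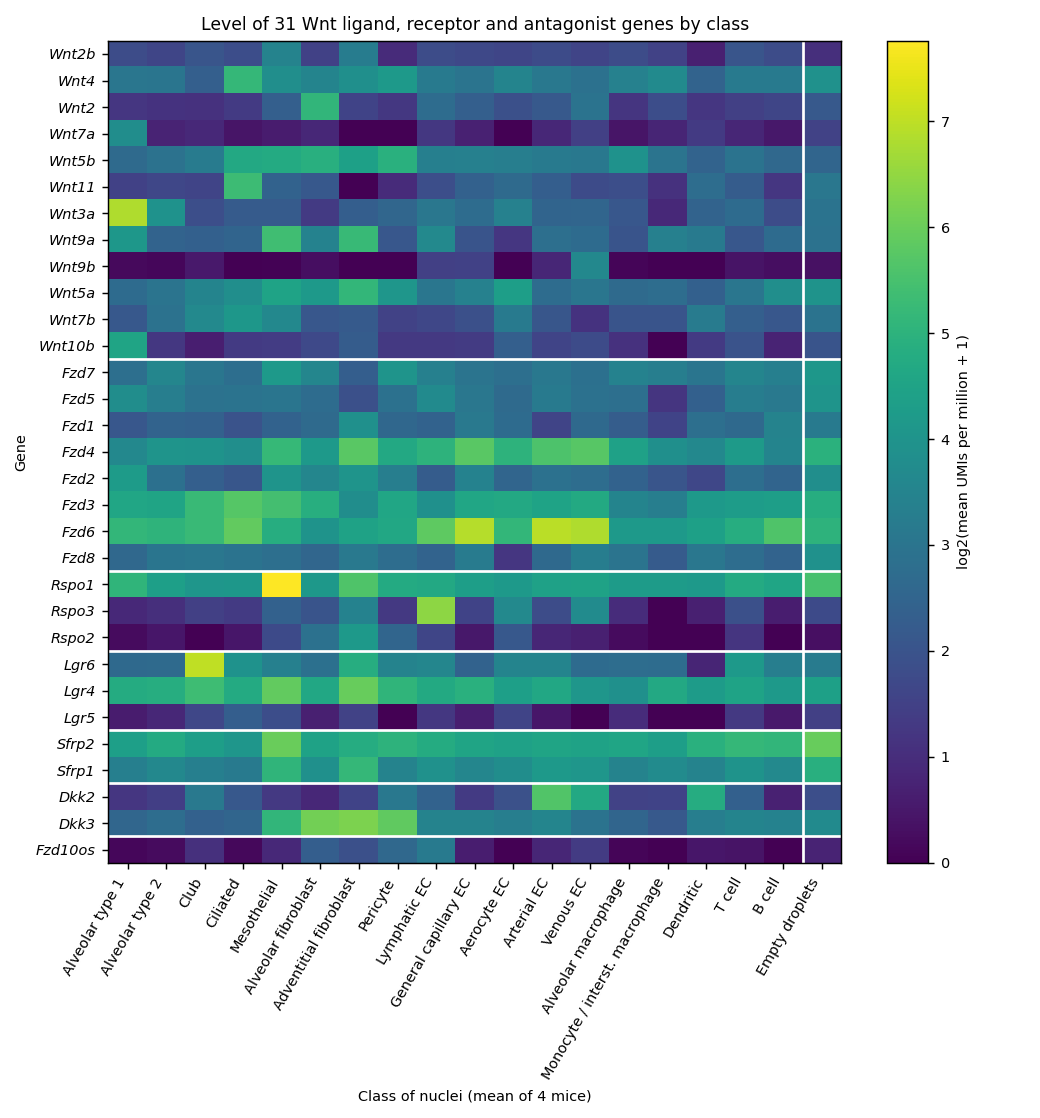
Heat map of the 31 tested genes (rows, grouped by role) over the 18 classes and the empty droplets (columns), with color as log2 of the mean CPM over 4 mice plus 1. Most ligands stand out in 1 or a few classes, such as Wnt3a in AT1 and Rspo3 in lymphatic ECs. The column of mesothelial nuclei holds 16 genes called higher than the rest, where 19.0% of all genes were. Of these 16, 10 were also higher than the empty droplets, a count with no share over all genes beside it.

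The classes differed in how much of the list they carried. In mesothelial nuclei, the cells of the pleural lining, 16 of 29 tested members were higher than in the rest, with a median log2 fold change of 0.96 over the members and -0.05 over all genes, of which 19.0% were called higher. Against the empty droplets of the same mice, 10 of these 16 were called higher and 6 were not, namely Wnt2, Fzd2, Fzd4, Fzd7, Sfrp1 and Sfrp2, with log2 differences of 0.16 to 0.39. No share over all genes is set beside this count against the droplets, so it only describes these members. The calls of Wnt2 and Rspo3 against the rest, at 0.63 and 0.61, were each lost without WT2, Tg1 or Tg2 (edgeR, adjusted p up to 0.148 and 0.134). Ciliated nuclei followed with 8 of 28 members, beside 27.3% of all genes. Alveolar fibroblasts had 6 of 30, beside 11.9%, and alveolar type 1 (AT1) nuclei 6 of 28, beside 22.1%. Alveolar macrophages had none higher and 21 of 29 lower, with a median of -1.07 over the members and -0.05 over all genes, of which 32.6% were lower. In alveolar type 2 (AT2) nuclei 21 of 29 were lower and Fzd7 alone was higher, with a median of -0.63 against 0.01. There 30.6% of all genes were lower and 26.5% higher. None of the members was called higher in alveolar macrophages, monocytes and interstitial macrophages, T cells, B cells or aerocytes, where 24.7%, 7.12%, 17.2%, 9.03% and 4.15% of all genes were. Of the 141 pairs tested in these 5 classes, 2 were higher at an unadjusted p under 0.05 by edgeR, Sfrp2 in T cells and Rspo3 in aerocytes, and DESeq2 called 0.

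Among the ligands, Wnt3a, Wnt7a and Wnt10b stood out in AT1 nuclei, the flat cells that form the gas exchange surface. Wnt3a (ENSMUSG00000009900, chr11:59248036-59290751 on GRCm38) is a ligand of the beta-catenin route. It reached 111.6 and 104.2 CPM in AT1 nuclei of WT1 and WT2 and 125.5 and 110.3 in those of Tg1 and Tg2, against 6.07 to 7.53 in the other named nuclei and 5.32 to 8.26 in empty droplets. All 4 mice thus lay within a narrow range, with no overlap with the rest, and the log2 fold change was 4.34 ± 0.09 (SE, edgeR, adjusted p = 1.45e-10). Wnt7a (chr6:91363981-91411353), which also acts on the vasculature of the brain, was at 19.2, 8.85, 10.5 and 13.2 in AT1 nuclei of WT1, WT2, Tg1 and Tg2 and at 0.400 to 0.818 elsewhere. Its log2 fold change of 4.60 ± 0.20 (edgeR, adjusted p = 2.97e-08) was the largest of the Wnt ligands, although it rests on 60 to 103 UMIs per mouse. Wnt10b (chr15:98770712-98778206), known from bone and fat, was at 30.0, 21.8, 21.5 and 15.96 in AT1 nuclei against 0.992 to 2.49 in the rest, a log2 difference of 4.24 ± 0.22 (edgeR, adjusted p = 9.76e-08). The 3 genes lie on different chromosomes and led in the same class.

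Because these 3 ligands shared AT1 as the class of their largest fold, their promoters are shown, as RefSeq gives them on GRCm38.p6, with 250 bases before the start and 20 after it. All run on the minus strand, at chr11:59290732-59291001 for Wnt3a, chr6:91411334-91411603 for Wnt7a and chr15:98778131-98778400 for Wnt10b, and are written 5' to 3'. For Wnt3a and Wnt7a the start used is the end of the gene span given above, while that of Wnt10b lies inside its span. Capitals mark CACTTG, a core motif of NKX homeodomain factors such as NKX2-1 of the lung epithelium, on either strand.
Wnt3a: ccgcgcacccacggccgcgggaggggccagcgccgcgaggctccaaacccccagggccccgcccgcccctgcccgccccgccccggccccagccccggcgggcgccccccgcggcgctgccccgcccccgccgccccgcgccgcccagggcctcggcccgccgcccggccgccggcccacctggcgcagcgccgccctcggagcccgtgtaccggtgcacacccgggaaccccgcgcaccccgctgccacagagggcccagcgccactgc
Wnt7a: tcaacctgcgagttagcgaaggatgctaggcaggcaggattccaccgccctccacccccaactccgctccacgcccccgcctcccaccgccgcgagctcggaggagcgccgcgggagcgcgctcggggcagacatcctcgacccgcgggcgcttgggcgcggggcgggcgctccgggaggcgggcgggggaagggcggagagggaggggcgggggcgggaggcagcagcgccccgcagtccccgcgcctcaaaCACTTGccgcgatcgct
Wnt10b: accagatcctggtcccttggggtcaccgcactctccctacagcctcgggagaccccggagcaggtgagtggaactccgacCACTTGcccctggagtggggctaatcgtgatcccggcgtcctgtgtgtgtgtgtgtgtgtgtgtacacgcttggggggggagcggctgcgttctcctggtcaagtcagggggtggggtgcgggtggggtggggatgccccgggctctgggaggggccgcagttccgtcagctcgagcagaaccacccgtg
The motif occurred once in Wnt7a, once in Wnt10b and not in Wnt3a. It is held by 12.5% of all promoters of this length in the table and by 4 of 32 promoters of the members (29 genes had an entry), so that its presence in a pair of AT1 ligands is a description only. It was chosen after the sequences had been seen. CTTTGAT, a motif of TCF and LEF factors, and GGAATG, a motif of TEAD factors, were in none of the 3 promoters. They were found in 3.50% and 13.5% of all promoters and in 2 promoters each of the members (Wnt5b and Wnt11, and Wnt5b and Lgr4). GC content was 86.7%, 75.9% and 66.7% in Wnt3a, Wnt7a and Wnt10b.

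Wnt2 (chr6:17985474-18032772), needed for the early lung bud, was the leading ligand of alveolar fibroblasts. It was at 37.1 and 35.0 CPM there in WT1 and WT2 and at 33.6 and 27.1 in Tg1 and Tg2, against 1.47 to 2.94 in the rest. The log2 fold change was 4.12 ± 0.25 (edgeR, adjusted p = 1.05e-13), and every mouse lay above its own empty droplets, at 1.80 to 5.18. Other ligands were named after their values had been seen. Wnt11, a ligand of cell movement, was at 38.6, 38.6, 45.2 and 31.7 in ciliated nuclei of WT1, WT2, Tg1 and Tg2 and at 1.67 to 3.65 elsewhere, a log2 difference of 4.06 ± 0.15 (edgeR, adjusted p = 1.22e-08). Wnt4, Wnt7b, Wnt5b and Wnt5a were also higher in ciliated nuclei, by 2.21, 1.69, 1.28 and 0.68 on the log2 scale. The last of these did not hold against empty droplets, where the log2 difference was -0.078 (adjusted p = 0.758).

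Wnt9a lies next to Wnt3a on chromosome 11, 16097 bases away. It shared the rise in AT1 nuclei (14.6, 14.7, 17.4 and 17.8 CPM in WT1, WT2, Tg1 and Tg2, log2 fold change 1.19 ± 0.16). Its highest class by fold was mesothelial, at 29.1, 36.6, 58.4 and 37.0, with a log2 difference of 2.64 ± 0.12 (edgeR, adjusted p = 2.02e-07). The neighbours thus overlapped in AT1 nuclei, where Wnt3a was 4.34 and Wnt9a 1.19 above the rest on the log2 scale, and parted in mesothelial nuclei, where Wnt3a was at 2.65 to 4.90 CPM. Wnt9b, whose annotation overlaps that of Wnt3 by 1098 bases, gave 61 UMIs in all named nuclei. Of these, 11, 14 and 5 were in venous ECs of WT1, Tg1 and Tg2 and none in WT2, which had 76 venous nuclei. It did not pass the filter in that class, and the only call was in general capillary ECs, on 1, 0, 4 and 2 UMIs, with WT2 at 0. That call was lost without Tg1 or Tg2 (edgeR, adjusted p = 0.342 and 0.162).

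**Figure D2:**
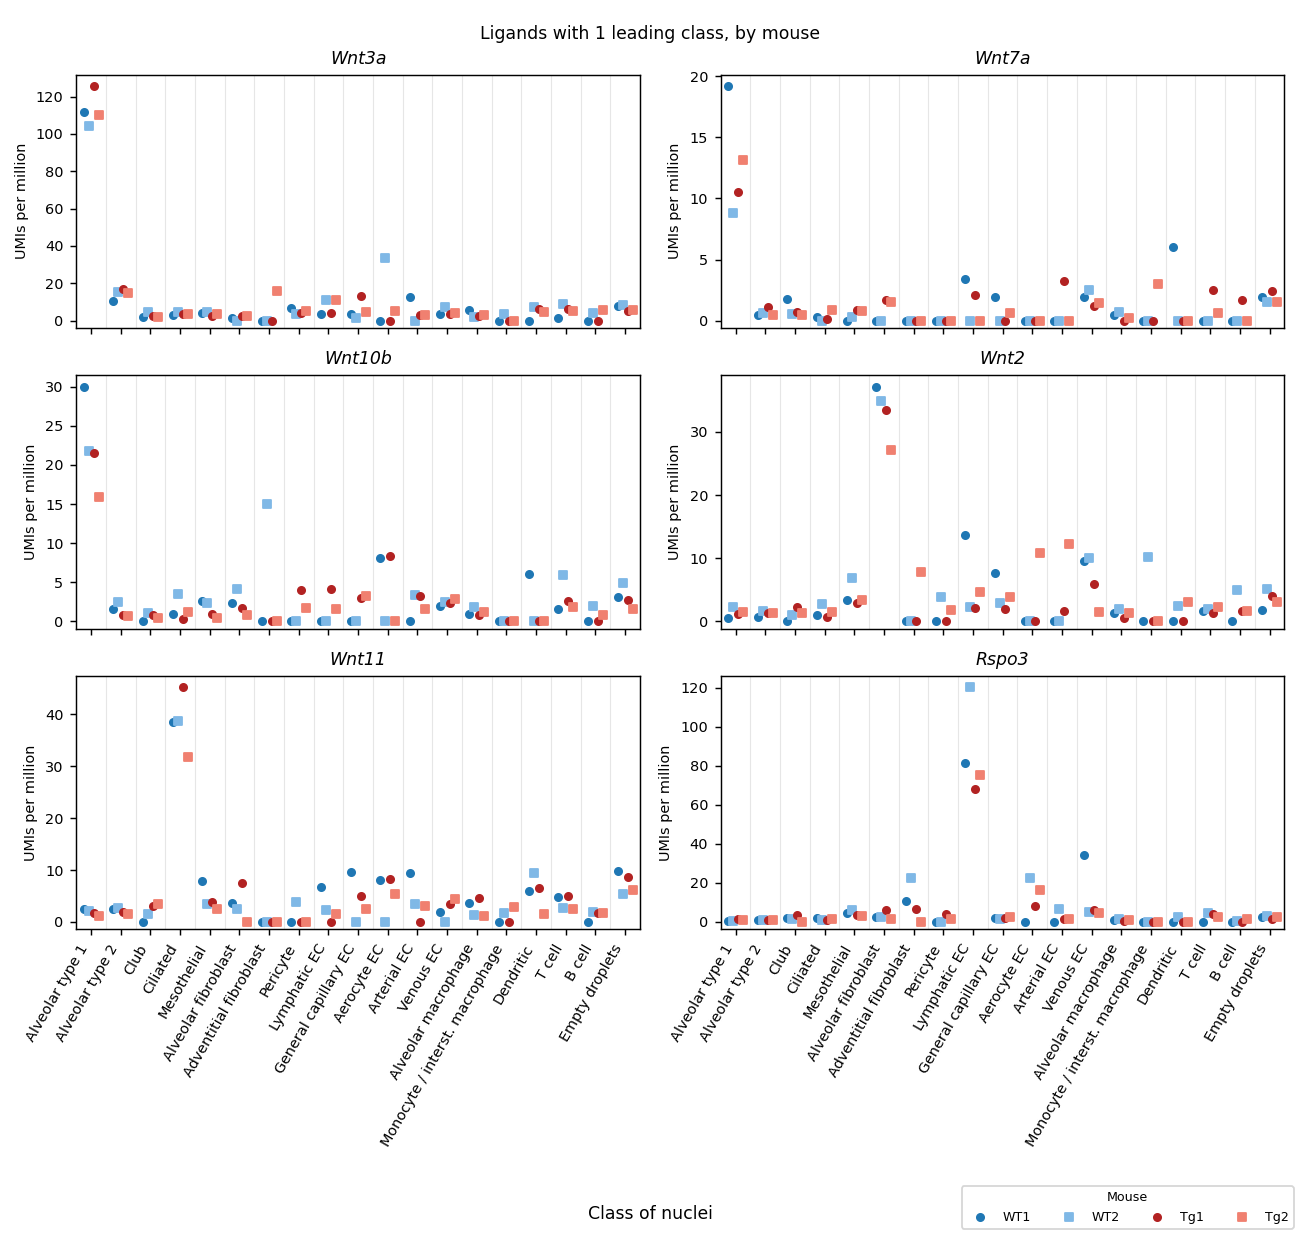
CPM of 6 ligands (1 panel each, linear axes that differ between panels) by class and by mouse, with WT mice in blue and Tg mice in red. In each panel the 4 mice of 1 class lie above the others, AT1 for Wnt3a, Wnt7a and Wnt10b, alveolar fibroblasts for Wnt2, ciliated nuclei for Wnt11 and lymphatic ECs for Rspo3, where the values run from 68.2 to 120.1.

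Of the 10 frizzled receptors, 8 were tested, and 19 of their 144 pairs with a class were higher than the rest, a share close to the 13.2% of all genes. Fzd6, a receptor known from planar cell polarity, led in arterial ECs. It was at 150.2, 98.0, 140.5 and 107.0 CPM there in WT1, WT2, Tg1 and Tg2, against 30.9 to 50.8 in the rest and 25.6 to 43.0 in empty droplets. The log2 fold change was 1.71 ± 0.14 (edgeR, adjusted p = 8.17e-19), and it was 1.65 in general capillary and 1.61 in venous ECs, so that 3 kinds of blood ECs lay close in fold. Of the blood EC nuclei, 447 of 807, 403 of 676, 958 of 1716 and 1237 of 1991 in WT1, WT2, Tg1 and Tg2 got no subtype. In each test of an EC subtype, these nuclei and the other EC subtypes were part of the rest. Ciliated nuclei were above the rest by 0.82 ± 0.09 (edgeR, adjusted p = 3.62e-05). Lymphatic ECs were above it by 0.51 ± 0.17, a call lost without WT2, Tg1 or Tg2 (adjusted p up to 0.213), and aerocytes, the capillary ECs of gas exchange, were at 16.3 to 66.5 with no call.

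Fzd4, the receptor of the retinal vessel ligand norrin, was raised in the same 3 kinds of blood ECs, though not in ECs alone. In general capillary ECs it was at 51.6 and 51.1 CPM in WT1 and WT2 and at 55.2 and 56.0 in Tg1 and Tg2, while the rest held 14.4 to 26.5. The log2 fold change was 1.36 ± 0.15 (edgeR, adjusted p = 3.03e-10) there, 1.34 in venous and 1.16 in arterial ECs. Free RNA held much Fzd4, at 18.9, 25.0, 38.2 and 36.9 in the empty droplets of the same mice, and against these droplets the log2 difference of general capillary ECs was 0.83 (adjusted p = 0.00319), that of venous ECs 0.80 (adjusted p = 0.0151) and that of arterial ECs 0.57, which was not called (adjusted p = 0.0538). Fzd4 was also above the rest in mesothelial nuclei (0.96) and in adventitial fibroblasts (1.13), where it was at 86.8, 7.52, 57.7 and 63.1 CPM in WT1, WT2, Tg1 and Tg2. Neither was called against the droplets (0.33, adjusted p = 0.0817, and 0.63, adjusted p = 0.287). The adventitial call was lost without WT1, Tg1 or Tg2 (adjusted p up to 0.501). Taking all blood ECs as 1 class, 5 of 29 tested members were higher than in the rest, 17.2% beside 21.7% of all genes. These were Fzd4, Fzd6, Dkk2, Rspo3 and Wnt2, with log2 fold changes of 1.44, 1.62, 2.22, 1.23 and 0.70. Wnt2 in ECs was not called against empty droplets (0.21, adjusted p = 0.628), and its call against the rest was lost without WT1 or without Tg2 (adjusted p up to 0.124).

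Fzd3 was highest by fold in ciliated nuclei, at 58.4, 52.7, 43.4 and 53.2 CPM against 20.8 to 26.8 in the rest (log2 fold change 1.32 ± 0.09, edgeR, adjusted p = 8.83e-07). Fzd3 is known from planar cell polarity as well, the process that orients cilia. Fzd2 was higher in AT1 nuclei, at 17.6, 14.6, 21.3 and 18.4 against 3.54 to 9.36, by 1.69 ± 0.17 (edgeR, adjusted p = 1.52e-05). The empty droplets held 5.22, 9.24, 20.2 and 18.5 CPM of Fzd2 in WT1, WT2, Tg1 and Tg2, so that those of Tg1 and Tg2 lay close to AT1 nuclei. Against the droplets the log2 difference of AT1 nuclei was 0.78 (edgeR, adjusted p = 0.0322). Fzd5 and Fzd7 were called once and in a pair of classes, and Fzd1 once, with log2 fold changes of 0.37 to 1.09. Against the droplets Fzd5 in AT1 nuclei was at 0.055 (adjusted p = 0.808) and Fzd7 in mesothelial nuclei at 0.16 (adjusted p = 0.451), and the Fzd1 call was lost without WT2, Tg1 or Tg2 (adjusted p up to 0.225). Fzd8 was the tested receptor that no class carried above the rest, with means of 1.35 to 8.75 over the classes and 14.1 in empty droplets. Fzd10os, an RNA of the opposite strand beside Fzd10, was called higher in lymphatic ECs on 4, 4, 3 and 2 UMIs. It was also called in alveolar fibroblasts on 6, 4, 3 and 4 UMIs, by 3.33 ± 0.55 (edgeR, adjusted p = 1.71e-05).

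The R-spondins divided between classes. Rspo3 (chr10:29453106-29535867), which is known to act in vessels, was the gene with the largest fold of the list. In lymphatic ECs it was at 81.6 and 120.1 CPM in WT1 and WT2 and at 68.2 and 75.4 in Tg1 and Tg2, against 1.66 to 2.69 in the rest and 1.59 to 2.80 in empty droplets. The log2 fold change was 5.31 ± 0.26 (edgeR, adjusted p = 4.48e-39). Of the blood ECs, the venous class was called too, by 1.91 ± 0.47, but 18 of its 28 UMIs came from WT1 and without that mouse the log2 fold change was 0.84 (adjusted p = 0.479).

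Rspo1 (chr4:124986401-125009102), a ligand that favours epithelial growth, was a gene of mesothelial nuclei. It was at 166.8 and 169.1 CPM there in WT1 and WT2 and at 292.7 and 233.5 in Tg1 and Tg2, with 5.96, 11.4, 34.9 and 35.0 in the rest of WT1, WT2, Tg1 and Tg2. The log2 fold change against the rest was 3.54 ± 0.27 (edgeR, adjusted p = 3.92e-06). Rspo2, needed for limb and lung growth, was higher in adventitial fibroblasts by 4.28 ± 0.82 (edgeR, adjusted p = 6.04e-06) on 1, 0, 3 and 5 UMIs, and the call was lost without Tg2 (adjusted p = 0.108). In alveolar fibroblasts Rspo2 was at 5.99, 7.49, 5.03 and 6.97 CPM in the 4 mice, with 0.522 to 1.18 in the rest, a log2 difference of 3.31 ± 0.45 (edgeR, adjusted p = 8.94e-07).

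The 3 Lgr receptors, to which R-spondins bind, each had another leading class by fold. Lgr6, a marker of stem cells in skin, led in club nuclei, the secretory cells of the airway, with a log2 fold change against the rest of 3.96 ± 0.22 (edgeR, adjusted p = 4.43e-10). Of the 9 club markers, 5 (Cyp2f2, Cckar, Bpifb1, Gabrp and Pon1) lay above the empty droplets in 4 of 4 mice, while Scgb1a1, Scgb3a2 and Scgb3a1 lay below them in 4 of 4. Scgb1a1 was at 6476, 6824, 38261 and 14498 CPM in club nuclei of WT1, WT2, Tg1 and Tg2 and at 6575, 6655, 40078 and 14079 in ECs, so that the class rests on the other markers and its name is to be read with that limit. The level of Lgr6 there was 67.1, 1.60, 316.2 and 126.1 CPM in WT1, WT2, Tg1 and Tg2, while the rest held 10.3, 0.401, 15.4 and 6.39. WT2 stands apart, since Lgr6 was at or below 2.52 CPM in all of its 18 classes. Within each mouse the club nuclei were nevertheless above the rest, but in WT2 this rests on 3 UMIs. Venous ECs of WT2 were higher still, at 2.52 CPM on 1 UMI. Lgr5, a stem cell marker of the gut, was low throughout and higher in ciliated nuclei, on 21, 11, 21 and 14 UMIs, by 2.20 ± 0.29 (edgeR, adjusted p = 0.000151). Lgr4, the widely used receptor, was at 70.2, 68.5, 45.5 and 48.7 CPM in mesothelial nuclei against 17.8 to 33.5 in the rest, by 1.35 ± 0.08 (edgeR, adjusted p = 6.78e-07). Its mean over the 4 mice was higher in adventitial fibroblasts, at 61.6 beside 58.2. That class was not called, with 43.4, 112.7, 19.2 and 71.0 CPM in WT1, WT2, Tg1 and Tg2 on 4, 15, 3 and 9 UMIs.

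Both tested Sfrp genes led in mesothelial nuclei by fold, and lay above the empty droplets in 3 of 4 mice. Sfrp1 was at 16.6, 24.5, 49.5 and 40.7 CPM there against 4.54, 5.72, 17.96 and 16 in the rest of WT1, WT2, Tg1 and Tg2, by 1.67 ± 0.13 (edgeR, adjusted p = 5.01e-06). Sfrp2 was at 58.9, 32.0, 78.5 and 77.9 against 13.9, 9.94, 28.1 and 39.4, by 1.55 ± 0.16 (edgeR, adjusted p = 2.65e-05). The mean of Sfrp1 over the 4 mice was highest in adventitial fibroblasts, which were not called. The droplets held 9.54, 12.9, 47.5 and 44.1 CPM of Sfrp1 and 36.9, 28.1, 73.2 and 104.7 of Sfrp2 in WT1, WT2, Tg1 and Tg2, so that Tg2 was the mouse below them. Against the droplets the log2 differences of the mesothelial class were 0.39 (adjusted p = 0.130) and 0.19 (adjusted p = 0.392), so that neither was called by that comparison. Of the 64 pairs of a gene and a class higher than the rest, 55 could be tested against empty droplets. In that test 41 were higher than the droplets too and 1 was lower, Fzd7 in AT2 nuclei, by -0.47 (adjusted p = 0.0124). Taking every pair of a member and a class tested against the droplets, 55 of 357 were higher and 164 lower. For all genes, 49061 of 226789 pairs were higher and 63044 lower.

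Dkk2 and Dkk3 were the Dkk genes tested. Dkk2, an antagonist that binds Lrp5 and Lrp6, was at 34.4 and 37.2 CPM in arterial ECs of WT1 and WT2 and at 57.2 and 67.2 in those of Tg1 and Tg2, against 1.05 to 3.87 in the rest. The log2 fold change was 4.15 ± 0.28 (edgeR, adjusted p = 3.07e-23), the largest among the receptors and antagonists of the list. Between genotypes, the arterial level did not pass the test (0.86 ± 0.36, edgeR, adjusted p = 0.220). Venous ECs were above the rest by 2.78 ± 0.46, with 70.5, 0, 16.5 and 11.6 CPM in WT1, WT2, Tg1 and Tg2, so that WT2 lay below its own rest. Without WT1 the log2 fold change was 1.63, and DESeq2 did not call it (adjusted p = 0.124). Dendritic nuclei were above it by 2.95 ± 0.48 on 5, 0, 5 and 29 UMIs, or 30.2, 0, 32.5 and 44.3 CPM, so that WT2 again lay below its own rest. Without Tg2, which gave most of these UMIs, the log2 difference was 2.21 (edgeR, adjusted p = 0.0276). Dkk3, a family member that does not bind Lrp6 as the others do, was a gene of the mesenchyme. In alveolar fibroblasts it was at 56.3, 61.6, 75.5 and 78.2 against 5.50 to 11.9, by 2.95 ± 0.15 (edgeR, adjusted p = 1.35e-15), and it was higher in adventitial fibroblasts by 2.63, in pericytes by 2.39 and in mesothelial nuclei by 1.97.

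**Figure D3:**
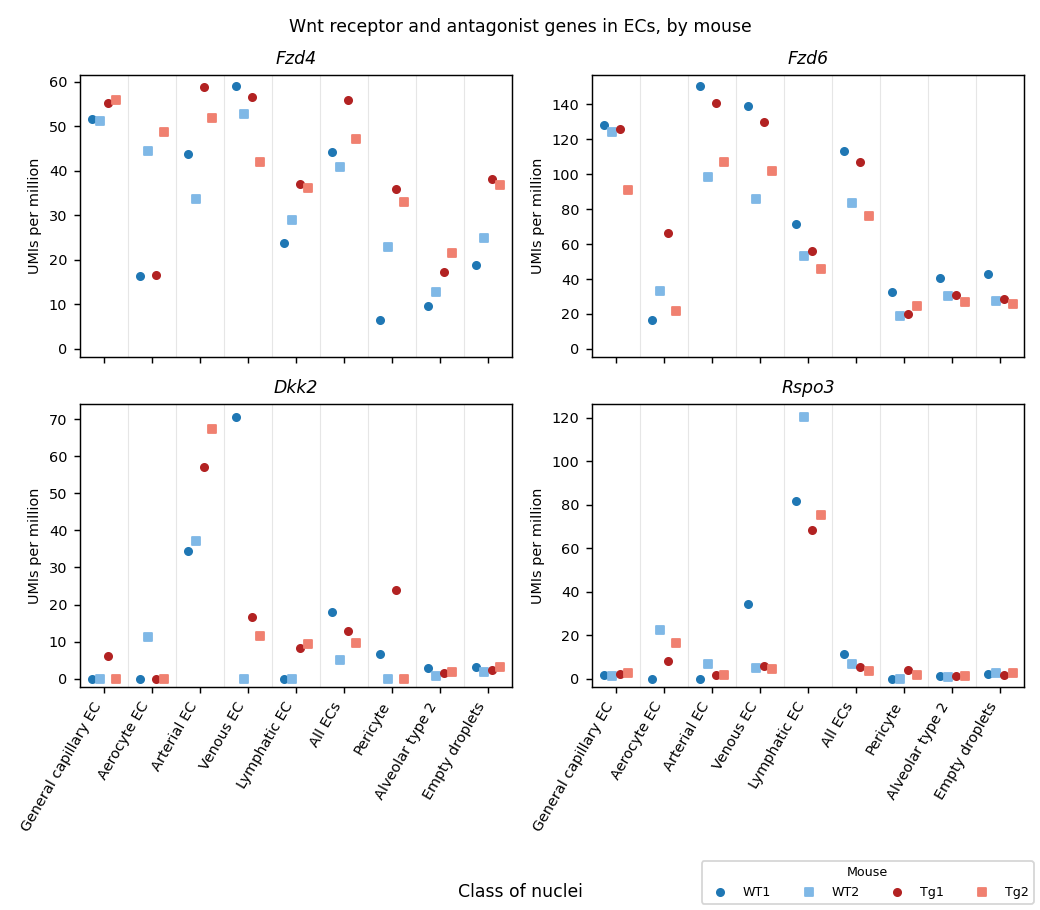
CPM of Fzd4, Fzd6, Dkk2 and Rspo3 (linear axes that differ between panels) in the 5 kinds of ECs, all blood ECs, pericytes, AT2 nuclei and empty droplets, by mouse, with WT mice in blue and Tg mice in red. Fzd6 and Fzd4 are high in general capillary, arterial and venous ECs, Dkk2 in arterial ECs and Rspo3 in lymphatic ECs, and Dkk2 in venous ECs ranges from 0 to 70.5.

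The transgene is driven in ECs, and the genotypes were compared within every class, ECs and their neighbours alike (edgeR, 2 mice against 2). Over the 18 classes, 205 pairs of a gene and a class passed the filter, and 23 were called higher in Tg mice and none lower. That is 11.2% of the pairs, beside 5.61% of the pairs of all genes called higher and 6.23% called in either direction. At an unadjusted p under 0.05 there were 64 pairs, a count with no share over all genes beside it, so nothing is read from it. DESeq2 called 16 higher and 1 lower, beside 7977 higher and 1894 lower of the 176136 pairs of all genes. The calls concerned 6 genes: Rspo1 in 10 classes, Sfrp2 in 6, Sfrp1 in 4, and Wnt2b, Lgr6 and Dkk2 in 1 each. With 2 mice per genotype 1 library weighs heavily: there were 8 higher and 0 lower without Tg1, 11 and 1 without Tg2, 32 and 1 without WT1, and 28 and 5 without WT2. The counts over all genes moved with the mouse left out too and were lowest without Tg1. Without Tg2, however, the count of members fell much more steeply than that over all genes. Whether the members depend more on single mice than other genes do was not tested. Leaving out a mouse leaves its genotype with 1, which is then assumed to vary like the other genotype, whose spread alone enters the test. On that assumption 3 of the 23 pairs were called whichever mouse was left out, Rspo1 in alveolar fibroblasts, club nuclei and general capillary ECs.

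Rspo1 was at 3.59 and 3.33 CPM in alveolar fibroblasts of WT1 and WT2 and at 26.8 and 32.5 in those of Tg1 and Tg2, a log2 difference of 3.07 ± 0.46 (edgeR, adjusted p = 0.00441), on 3, 4, 32 and 42 UMIs. In general capillary ECs it was at 5.73, 4.38, 30.1 and 36.9 in WT1, WT2, Tg1 and Tg2 (2.74 ± 0.51, edgeR, adjusted p = 0.00533), and in club nuclei at 3.53, 5.32, 28.5 and 26.8 (2.46 ± 0.44, edgeR, adjusted p = 0.00495). The rise in the 10 classes ran from 1.32 in AT1 nuclei to 3.07. In mesothelial nuclei, where the gene is highest, the difference was 0.65 ± 0.20 and did not pass the test (edgeR, adjusted p = 0.101). In all blood ECs Rspo1 was at 6.13 and 12.4 in WT1 and WT2 and at 33.8 and 38.6 in Tg1 and Tg2, 1.94 ± 0.31 higher (edgeR, adjusted p = 0.0147).

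Sfrp2 was higher in Tg mice by 1.43 to 3.24 on the log2 scale in alveolar fibroblasts, AT1, AT2, club and dendritic nuclei and general capillary ECs. In AT2 nuclei, the class with the most UMIs of it, the level was 16.2 and 11.8 CPM in WT1 and WT2 and 33.1 and 43.1 in Tg1 and Tg2 (1.43 ± 0.24, edgeR, adjusted p = 0.0212). Sfrp1 was higher by 1.10 to 2.00 in mesothelial, AT1 and AT2 nuclei and alveolar macrophages, and in AT2 nuclei it was at 5.30 and 5.70 against 17.2 and 16.5 (1.61 ± 0.24, edgeR, adjusted p = 0.0181). All blood ECs showed both, Sfrp1 by 2.24 ± 0.39 and Sfrp2 by 1.45 ± 0.26. With Rspo1 these were 3 of 26 members tested in ECs, or 11.5%, beside 7.69% of all genes. Without Tg1 none of the 3 was called in ECs, with adjusted p-values up to 0.158.

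The empty droplets moved the same way. Rspo1 was at 7.74 and 15.3 CPM in those of WT1 and WT2 and at 76.98 and 76.4 in those of Tg1 and Tg2, 2.98 ± 0.36 higher on the log2 scale (edgeR, adjusted p = 0.0178). Sfrp1 rose there from 9.54 and 12.9 to 47.5 and 44.1, and Sfrp2 from 36.9 and 28.1 to 73.2 and 104.7, by 2.29 ± 0.29 and 1.67 ± 0.25. In all, 7 of 27 tested members were higher in the droplets of Tg1 and Tg2, 25.9% beside 14.5% of all genes, the others being Fzd2, Dkk3, Wnt9a and Fzd4. Without Tg1 none was called and without Tg2 there were 2.

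The 3 genes make up 20 of the 23 pairs, 19 of them outside the mesothelial class, and in 17 of these 19 the class lay below the empty droplets in all 4 mice. When the free RNA of each mouse was subtracted from its class sums, none of the 104 pairs of members still tested was called. By edgeR 17 were at an unadjusted p under 0.05, a count with no share over all genes beside it. Over all genes, 50 of 127755 pairs were then called higher in Tg mice and 5 lower, so the loss of calls was not particular to the members. Of the 23 pairs, 7 could be tested. Of these 7, the log2 difference shrank for Rspo1 in AT1 nuclei (from 1.32 to 0.46), AT2 nuclei (from 2.50 to 0.86) and alveolar macrophages (from 2.59 to 1.84) and for Sfrp1 in mesothelial nuclei (from 1.10 to 0.66). It was as large or larger for Lgr6 and Dkk2 in club nuclei (3.38 and 4.03) and Wnt2b in AT1 nuclei (3.63), with adjusted p-values of 0.106 to 0.244 by edgeR. Before the subtraction WT1 and WT2 held 38 and 3 UMIs of Lgr6, 0 and 3 of Dkk2 and 2 and 7 of Wnt2b there. Subtraction lowers such small counts further and can widen a fold, and whether it did so here was not tested. The mesothelial nuclei made up 5.54% and 7.62% of the named nuclei of WT1 and WT2 and 9.25% and 11.1% of those of Tg1 and Tg2. The 8 mesothelial markers together were at 569 and 896 CPM in the empty droplets of WT1 and WT2 and at 1454 and 1721 in those of Tg1 and Tg2, with 6 of 8 higher in both Tg mice and none at 0. In ECs the same sum was 246 and 470.1 in WT1 and WT2 and 702 and 834 in Tg1 and Tg2. Which cells gave the Rspo1, Sfrp1 and Sfrp2 of the free RNA was not tested. A change in the number of cells and a change in RNA per cell cannot be told apart there. The free RNA of Tg1 was also rich in the club cell transcript Scgb1a1, at 128052 CPM, beside 43359 in Tg2 and 15011 and 15673 in WT1 and WT2. The part of these differences in the calls within classes was not tested beyond the subtraction.

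**Figure D4:**
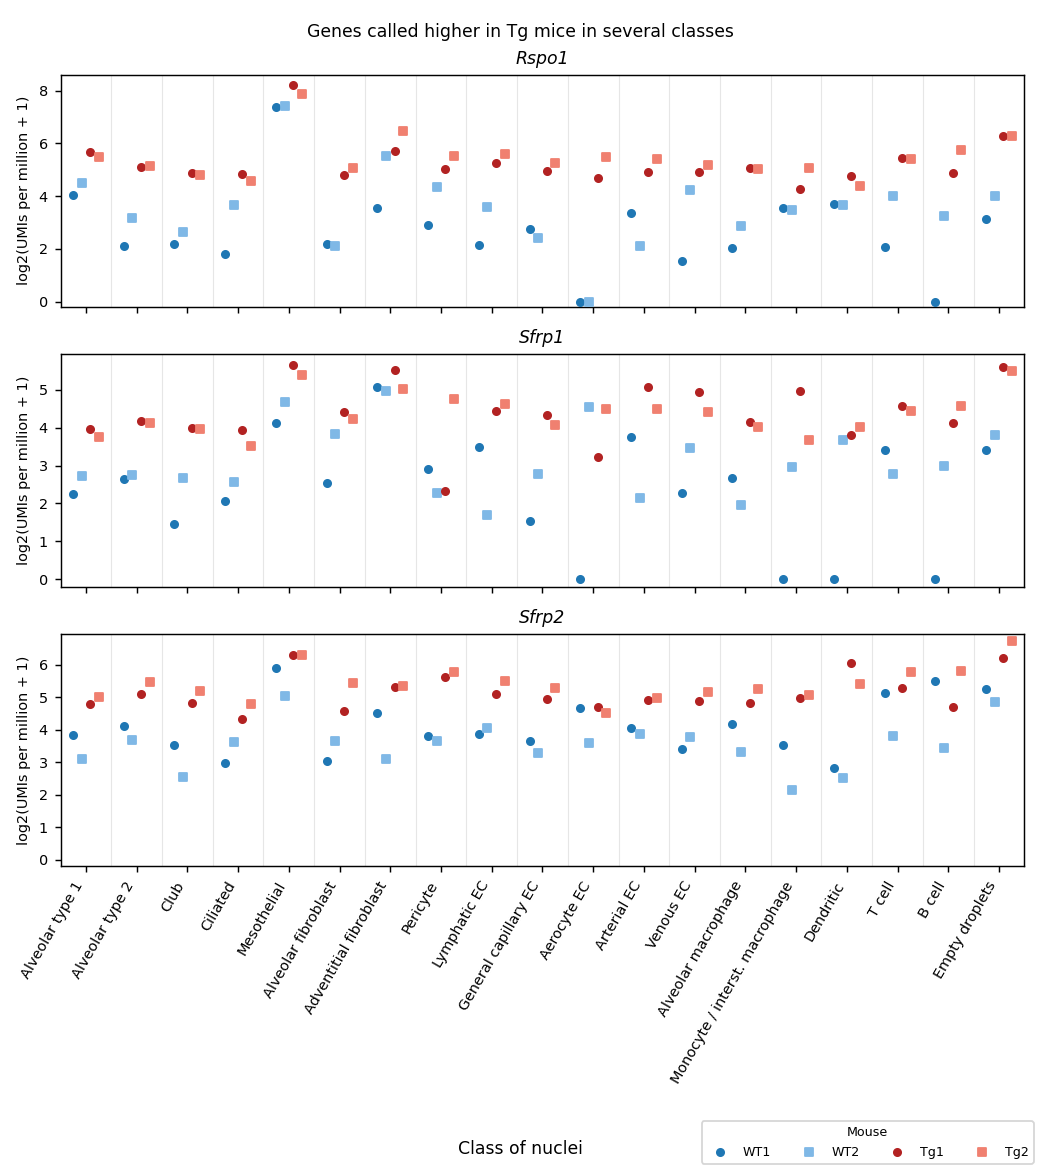
Rspo1, Sfrp1 and Sfrp2 by class and mouse, as log2 of CPM plus 1, with WT mice in blue and Tg mice in red and empty droplets at the right. In the empty droplets Rspo1 was at 7.74 and 15.3 CPM in WT mice and at 76.98 and 76.4 in Tg mice.

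Club nuclei carried calls of Dkk2 and Lgr6 beside those of Rspo1 and Sfrp2. Dkk2 was found with 0 and 3 UMIs in WT1 and WT2 and 28 and 19 in Tg1 and Tg2, or 0, 1.60, 21.0 and 8.21 CPM (log2 fold change 3.43 ± 0.85, edgeR, adjusted p = 0.0286). Its level in the empty droplets was 1.82 to 3.24 with no call. Without Tg1 the fitted value was 2.66 and the call was lost (edgeR, adjusted p = 0.340), and DESeq2 gave 0.0762. Without WT2 it was 7.30, a value that depends on the prior count and is no bound, since WT1, the WT mouse then left, had 0 UMIs. Lgr6, at the levels given above, was 3.26 ± 0.85 higher in Tg1 and Tg2 (edgeR, adjusted p = 0.0357), and the WT mice differed from each other more than the genotypes did, so that the value was 1.67 without WT2 and 6.97 without WT1. The call was lost without Tg1 (adjusted p = 0.0945) and in DESeq2 (adjusted p = 0.581). Tacr1 and Vtcn1, other genes that lead the club class, were present in WT2 at 145 and 316 CPM, beside 274 to 399 and 201 to 466 in the other mice. Tnfrsf19, a Wnt target outside the list, was at 1.77, 2.13, 19.5 and 13.8 CPM in club nuclei of WT1, WT2, Tg1 and Tg2.

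Wnt2b, a ligand of the early lung mesenchyme, was called in AT1 nuclei on 2, 7, 27 and 32 UMIs (2.29 ± 0.51, edgeR, adjusted p = 0.0496), and lost when any mouse was left out. Its leading class was mesothelial, at 5.30, 15.0, 12.8 and 7.58 CPM.

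**Figure D5:**
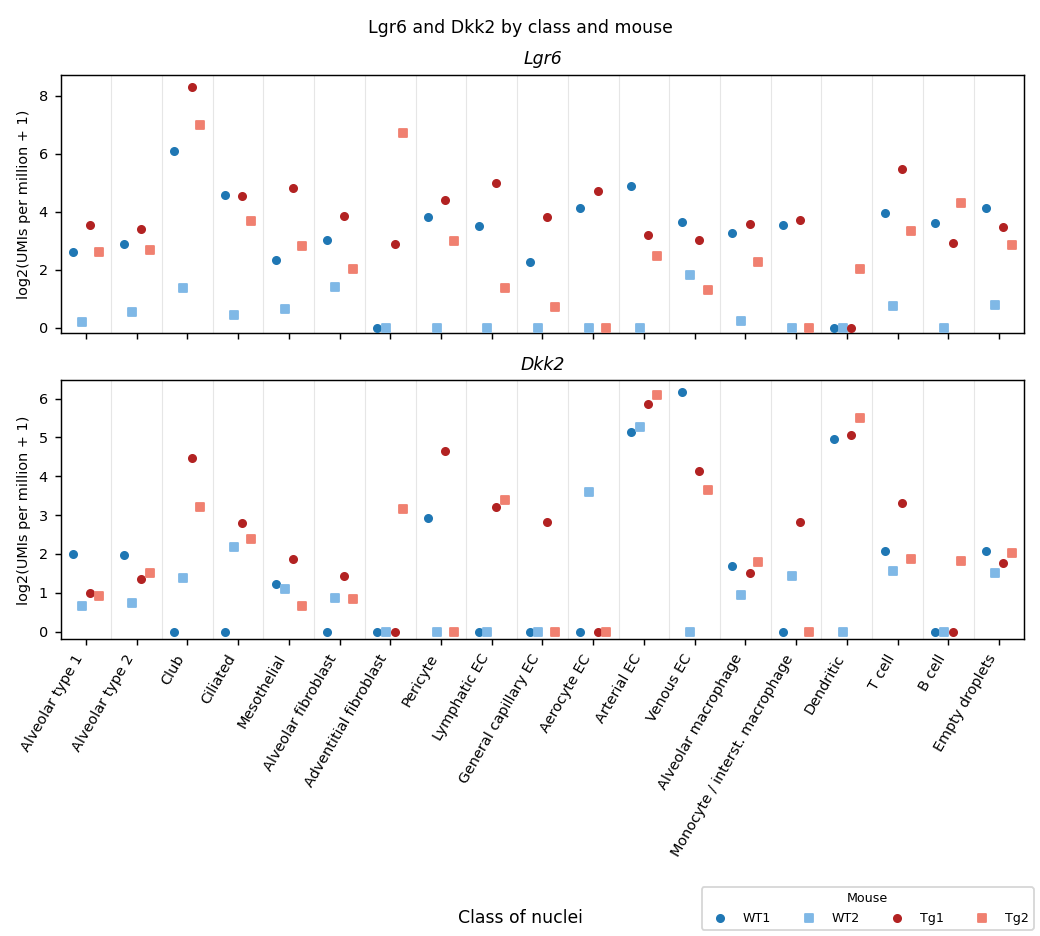
Lgr6 and Dkk2 by class and mouse, as log2 of CPM plus 1, with WT mice in blue and Tg mice in red and empty droplets at the right. Lgr6 is highest in club nuclei of WT1, Tg1 and Tg2 and at or below 2.52 CPM in every class of WT2, and Dkk2 is highest in arterial ECs of WT2, Tg1 and Tg2 and in venous ECs of WT1, with club nuclei of Tg1 and Tg2 at 21.0 and 8.21 CPM.

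Since the transgene is driven in ECs, the change in blood ECs was compared with that in the other named classes. None of 31 members was called, and none of 17825 genes, 0% (edgeR with an interaction of class and genotype and a term for each mouse, 1156 genes and 4 members at an unadjusted p under 0.05, with no other tool run). The 4 members were Lgr6, with an EC change 1.13 ± 0.31 below that of the other classes on the log2 scale, Dkk2 (-0.85 ± 0.33), Sfrp1 (0.72 ± 0.31) and Rspo1 (0.52 ± 0.23), all with edgeR adjusted p-values of 0.563 to 0.762. With no filter on low counts, Lgr6 was called (-1.29, adjusted p = 0.0234), and without WT1 its difference was -0.40.

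The other genes of the pathway were compared the same way. Of 49 genes for Wnt secretion, co-receptors, further antagonists, cytoplasmic and nuclear signalling and targets, 43 were tested, and 124 of 753 pairs of a gene and a class were higher than the rest, or 16.5%, beside 13.2% for all genes. Ror2, a receptor of the route without beta-catenin, was at 129.4, 113.2, 57.0 and 88.2 CPM in alveolar fibroblasts against 4.40 to 13.9 elsewhere (3.87 ± 0.17, edgeR, adjusted p = 7.45e-17). Ror1 was higher in AT2 nuclei by 1.97, Porcn, which attaches the lipid to Wnt proteins, in ciliated nuclei by 2.27, and Wls, which carries them to the membrane, in AT1 nuclei by 0.67. The antagonist Wif1 was higher in ciliated nuclei by 3.31. The antagonist Apcdd1 was called higher in adventitial fibroblasts (2.88 ± 0.81) on 1, 3, 3 and 1 UMIs, and the call was lost without WT2 or Tg1 (edgeR, adjusted p = 0.152 and 0.141). Prickle2 and Prickle1 of the polarity route were highest in aerocytes, by 3.93 and 2.54, and the nuclear factors Lef1 and Tcf7 in T cells, by 4.29 and 3.86. Tnfrsf19 was higher in alveolar fibroblasts by 3.82 and the target Nkd2 in general capillary ECs by 2.51. Axin2, a general target of beta-catenin signalling named here after its values were seen, was higher in pericytes (1.64), alveolar fibroblasts (1.13), T cells (0.77), mesothelial (0.68) and AT2 nuclei (0.63), and lower in club nuclei (-1.36), alveolar macrophages (-1.08), AT1 nuclei (-0.87) and ciliated nuclei (-0.72).

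Between genotypes, 6 of 542 pairs of these genes were called, 1.11% beside 6.23% for all genes, 2 higher and 4 lower in Tg mice. Ccnd1 was higher in AT1 nuclei (0.83 ± 0.18), where it lay below the empty droplets in 4 of 4 mice, and the call was lost without any 1 mouse and in DESeq2 (adjusted p = 0.0838). Tnfrsf19 was higher in club nuclei (2.93 ± 0.61), a call lost without Tg1 (adjusted p = 0.121) and in DESeq2 (adjusted p = 0.0672). Znrf3, the ligase that R-spondins clear, was lower in mesothelial nuclei, at 253 and 228 CPM in WT1 and WT2 and 123 and 146 in Tg1 and Tg2 (-0.85 ± 0.18, edgeR, adjusted p = 0.0382). It was at 270 and 217 in the empty droplets of WT1 and WT2 and at 46.8 and 78.5 in those of Tg1 and Tg2. The call was lost without WT1, Tg1 or Tg2 (adjusted p up to 0.226) and with free RNA subtracted (-0.58, adjusted p = 0.257). Ror1 in club nuclei (-1.18 ± 0.26), Prickle1 in dendritic nuclei (-2.21 ± 0.52) and Prickle2 in T cells (-1.34 ± 0.24) were lower too. Prickle1 there rests on 7, 39, 3 and 9 UMIs, and its call was lost without Tg2 (adjusted p = 0.350) and in DESeq2 (adjusted p = 0.367). In the empty droplets, Prickle2 was at 324 and 223 CPM in WT1 and WT2 and at 69.1 and 105 in Tg1 and Tg2, and Ror1 at 374, 241, 60.8 and 112 in the same order. With free RNA subtracted, Prickle2 in T cells was at -1.02 (edgeR, adjusted p = 0.716) and Ror1 in club nuclei at 0.10, and neither was called.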

How the data were processed

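Nuclei of 4 lungs (2 WT and 2 Tg mice) were sequenced with a droplet 3' kit. The authors deposited unfiltered counts of UMIs per gene and barcode, made with Cell Ranger 6.1.1 and the mm10 build per the submitters' processing notes, with intronic reads included per the study's methods. The headers of the matrices name Cell Ranger 4 instead, and which version made these counts was not settled. Counting introns adds pre-mRNA, so that long genes weigh more. Strand use was not stated, and Rspo4os, for which no position was at hand, may share reads with its partner. The spans of Fzd10os and Fzd10 on chromosome 5 do not overlap. The study's own exclusion of low-quality nuclei and multiplets is not applied in these files, and free RNA is still in them.

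Barcodes with at least 1500 UMIs were classified from 204 markers: the best class needed a Poisson deviance of 12 above the empty droplet profile and 3 markers, with subtypes of ECs needing 6 and 2. General capillary ECs were led by Kit beside markers of ECs in general. Barcodes in which a further class also passed and the best led it by less than 2 times were taken as possible doublets and left out. Counts were summed per mouse and class and tested with edgeR 4.0.16 (R 4.3.3, TMM, a minimum count of 10, Benjamini-Hochberg adjustment, threshold 0.05). All tests are two-sided. The samples are separate mice. Tables were made with Python 3.11.15. On simulated counts, 81.5% of 200 genes changed 4-fold were recovered in the genotype test of ECs (14387 genes, 9.44% false calls) and 99.5% in that of AT1 against the rest (16637 genes, 6.13%). Both shares of false calls lie above the threshold of 0.05. The changed genes were drawn from all genes tested, so these figures need not hold for members with few UMIs or for smaller classes.

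Named are, per role, up to 4 members with the largest fold against the rest, and every member called between genotypes. The members and lists were chosen with earlier results of these data known. Alternatives were DESeq2 1.42.0 and its size factors, no filter, minimums of 1000 and 2500 UMIs, a stricter class rule, doublets kept, free RNA subtracted, empty droplets as the comparator, the replicate number as a block, and each mouse left out. Replicate numbers do not name a shared litter or day, so they pair no mice.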

Additional observations from a re-analysis of the deposited data

How the results depend on the processing

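The count of 23 pairs of a member and a class called between genotypes was 54 with no filter on low counts and 0 with free RNA subtracted, where 104 pairs were tested in place of 205, and leaving out a mouse gave 8 to 33. With the replicate block it was 44. Over all genes, the calls higher and lower in Tg mice were 9890 and 1087 in the main fit. They were 18671 and 5644 with no filter, 15622 and 3275 with the replicate block, and 50 and 5 with free RNA subtracted. In the block check, the deviations of same-numbered mice correlated by -0.08 to 0.28 over the classes, and with 2 pairs this is no evidence of pairing. For the other pathway genes, 6 pairs became 30 with no filter, 22 with the replicate block, 1 with free RNA subtracted and 3 to 31 with a mouse left out. In the comparison of classes, the count of 64 member pairs ranged from 53 to 70 under the alternatives run (55 against empty droplets, where 55 of the 64 could be tested and 41 of them were called higher), and the 124 pairs of other pathway genes became 195 with empty droplets as the comparator. In the comparison of ECs with other classes, 1 member was called with no filter, Lgr6. In empty droplets, 7 members became 0 to 9 with a mouse left out and 8 with the replicate block, and a lower UMI range for empty droplets, with 95 to 113 barcodes per mouse, left no member to test. Directions turned in 4 named results: against empty droplets, Fzd7 in AT2 nuclei (-0.47), Wnt5a in ciliated nuclei (-0.078) and Fzd1 in general capillary ECs (-0.061), and with free RNA subtracted, Ror1 in club nuclei (0.10). Of the 19 pairs named by class, 18 were called without each mouse in turn. Beyond the smaller number tested, the cause of these moves was not tested. Intervals and SEs cover 2 mice per genotype, and classes of few nuclei, such as adventitial fibroblasts with 19 to 49, leave low genes out of reach.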

Other observations

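Some members gave UMIs in nuclei too few to test. Smooth muscle-like nuclei numbered 5, 1, 6 and 5 in WT1, WT2, Tg1 and Tg2, with 52275 UMIs together. Lgr6 gave 4, 0, 2 and 3 UMIs in them, 172 CPM over the 4 mice, beside 10.3, 0.401, 15.4 and 6.39 CPM in all named nuclei other than club nuclei of WT1, WT2, Tg1 and Tg2, and Dkk3 gave 5 UMIs in all. The fibroblasts marked by Chl1, Kif26b and Agtr1b, 11 nuclei in all, held 3 UMIs of Rspo2 and 4 of Rspo1. Sfrp4, an antagonist that passed the filter in no class, gave 10 of its 85 UMIs in adventitial fibroblasts (5, 0, 3 and 2 by mouse), a class of 22, 19, 49 and 38 nuclei. Adventitial fibroblasts also held 13 UMIs of Lgr6 in Tg2, beside 0, 0 and 1 in WT1, WT2 and Tg1.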
